A study of Homo sapiens with 6 samples.

Results

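The regions described here are replication origin regions that all 4 nascent-strand peak lists of the study shared and that were covered over a longer stretch after siORCA than in control. Their number was 3648, out of 47410 shared regions from 300 bp to just under 2 kb and 534833 merged regions in all on chromosomes 1 to 22 and X. They were chosen by the covered length itself: peaks of the 4 lists were merged wherever they touched or overlapped, the peak bases of each sample were summed in each region, and a region was kept if the smaller siORCA sum was at least 1.5 times the larger control sum. Their widths are therefore a description of what was selected and carry no test.

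The cells were U2OS, an established human osteosarcoma line. One group had received gl3, a control transfection (control, 2 samples), and the other siORCA, an siRNA against ORCA (siORCA, 2 samples). The labels give no time after transfection and no other agent, and do not say whether the replicates were separate cultures. A genomic DNA sample of each transfection (2 in all) was not analysed here, and the level of ORCA cannot be read from peaks of DNA. The control lists numbered 181215 (control 1) and 235865 (control 2) peaks and the siORCA lists 330265 (siORCA 1) and 198518 (siORCA 2). The depth of sequencing is unknown, as the lists carry no read counts.

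Replication starts where the origin recognition complex (ORC), with CDC6 and CDT1, has loaded the MCM helicase. ORCA, the product of LRWD1, binds ORC, helps to keep it on chromatin and is enriched in heterochromatin. In nascent-strand sequencing (NS-seq), short new DNA is isolated by size and freed of broken parental DNA by an exonuclease that spares strands with an RNA primer, so a peak marks DNA around an active start. A broad peak caller joins neighbouring enriched stretches, and a wide peak can therefore stand for a start zone as well as for a stronger signal. The deposited peaks lie on the T2T-CHM13 assembly. No sequence or gene annotation of that assembly was used here, so the regions are given by position, without genes.

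In the 3648 regions, the median covered length was 199 bp (control 1), 182 bp (control 2), 630 bp (siORCA 1) and 629 bp (siORCA 2). Over all 47410 shared regions it was 391 bp, 353 bp, 411 bp and 432 bp in the same order. The selected regions thus stood out on both sides, with control covered lengths shorter than in the typical shared region and siORCA covered lengths longer. The middle 80% of the selected regions ran from 119 to 478 bp in control 1, from 108 to 430 bp in control 2, from 329 to 1196 bp in siORCA 1 and from 317 to 1179 bp in siORCA 2. Together the regions held 935 kb and 850 kb of peak in control 1 and control 2, against 2564 kb and 2544 kb in siORCA 1 and siORCA 2, or 1.60%, 1.27%, 2.98% and 3.97% of the length of each list.

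**Figure D1:**
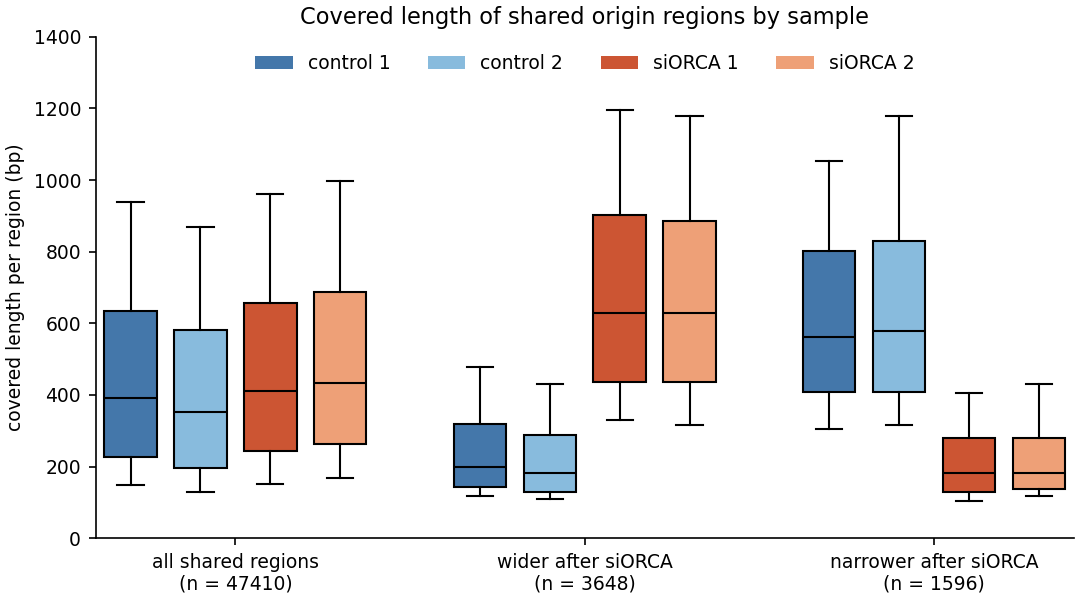
Covered length per region in bp (vertical axis) by sample, for all shared regions, those wider after siORCA and those narrower after siORCA. Boxes span the 25th to 75th percentiles with the median as a line, and whiskers the 10th to 90th. In the regions wider after siORCA both siORCA medians (630 and 629 bp) lie above the control medians (199 and 182 bp), as the choice of these regions fixes.

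The ratio of the smaller siORCA length to the larger control length had a median of 1.94 among the members. It lay between 1.5 and 2 in 1957 of them (53.6%), between 2 and 3 in 1192 (32.7%), between 3 and 5 in 438 (12%) and at 5 or more in 61 (1.67%). The threshold had no gap around it: 310 regions lay from 1.5 up to 1.55 and 308 from 1.45 up to 1.5. A region just inside, on chromosome 1 from 735062 to 735408, had 171 bp and 186 bp of peak in control 1 and control 2 and 325 bp and 279 bp in siORCA 1 and siORCA 2. Another, on chromosome 1 from 11719238 to 11720042, had 246 bp, 197 bp, 804 bp and 369 bp in that order. Just outside, a region on chromosome 3 from 46478269 to 46480073 had 809 bp, 158 bp, 1213 bp and 1660 bp. A region on chromosome 16 from 72964718 to 72965819, also just outside, had 114 bp, 497 bp, 1102 bp and 745 bp. In both of these the control samples differed from each other by more than the rule asks between the groups.

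The 3648 regions made up 7.69% of shared regions, and the same rule in the other direction, with both controls wider, gave 1596 (3.37%). The 2 other ways of pairing the samples, which mix control with siORCA, give counts of the same rule for comparison. They are not a background free of the groups, since differences between groups and between samples both enter them. Control 1 (median 391 bp, control 2 353 bp) and siORCA 2 (432 bp, siORCA 1 411 bp) had the higher median of their group over shared regions. Control 1 and siORCA 2 were both wider than the other pair in 3084 regions (6.5%), and control 2 and siORCA 1 in 1820 (3.84%). Control 1 and siORCA 1 were both wider in 1943 (4.1%), and control 2 and siORCA 2 in 1898 (4.0%). The siORCA pair thus had the highest count of the 6, but 1.18 times that of a mixed pair. Dropping the requirement on one sample raised the counts, to 11456 wider regions without control 1, 7999 without control 2, 7747 without siORCA 1 and 8119 without siORCA 2, against 5681, 5543, 3790 and 5944 narrower ones.

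Both siORCA samples had a higher median covered length than both controls over the shared regions as a whole. The sample medians averaged 372 ± 26.9 bp for the controls and 421.5 ± 14.8 bp for siORCA (SD, n = 2 per group), a difference of 49.5 bp. Single peaks over the whole lists did not show this order. Their median width was 216 bp (control 1), 189 bp (control 2), 167 bp (siORCA 1) and 212 bp (siORCA 2). When each sample was divided by its own median, 2622 regions were wider after siORCA (5.53% of shared regions) and 2263 narrower, while the highest mixed pair, control 1 and siORCA 2, had 2567. The share of wider among wider and narrower regions fell from 69.6% to 53.7%. All 2622 were among the 3648, of which they made up 71.9%. This nesting was fixed in advance, since both siORCA medians exceeded both control medians and the division lowers every ratio of siORCA to control. The division sets the 4 sample medians equal, which in itself draws the counts of wider and narrower regions together, so the fall of this share does not say where the excess as summed came from.

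**Figure D2:**
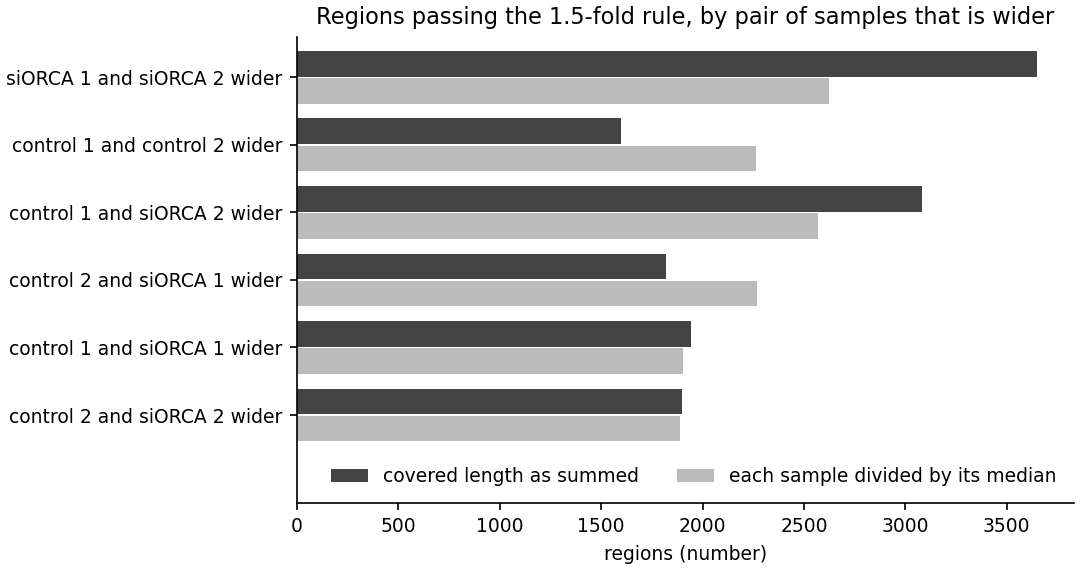
Number of shared regions (horizontal axis) in which the named pair of samples is at least 1.5 times wider than the other pair, from covered lengths as summed (dark bars) and after each sample was divided by its median (light bars). The siORCA pair leads with 3648 as summed, and with 2622 against 2567 for control 1 and siORCA 2 after division.

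The spread between replicates was large beside the 1.5-fold of the rule. Over all shared regions the longer of the 2 control lengths was 1.5 times the shorter or more in 58.3% of regions, with a median ratio of 1.68. The 2 siORCA lengths differed by that much in 49.2%, with a median ratio of 1.48. In the selected regions, where the rule favours samples of a group that lie close, these shares were 35.3% and 27.9%.

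Regions were also chosen in 1 control and 1 siORCA sample and measured in the other 2 samples. The held-out samples took no part in the 1.5-fold choice, but they too had to hold a peak in the region and helped to set its merged width, so they are not free of selection. With siORCA 1 and control 1, 13945 regions had siORCA at least 1.5 times wider, by a median of 1.22 on the log2 scale. In siORCA 2 and control 2 the same regions differed by a median log2 of 0.26, where all shared regions differed by 0.23. Chosen in siORCA 2 and control 1, 13629 regions differed by 0.27 in the held-out pair, against 0.19 for all. Chosen in siORCA 1 and control 2, 16958 regions differed by 0.15 against 0.10, and chosen in siORCA 2 and control 2, 17529 regions differed by 0.08 against 0.07. The held-out median exceeded that of all shared regions in each of the 4 choices, by 0.0047 to 0.0877 on the log2 scale, beside medians of 1.20 to 1.33 in the samples used for the choice. The 4 choices are 2 splits of the same samples, each read in both directions, so they are not 4 separate readings. These are descriptions with no test, since 1 sample per group is left.

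The share of regions that passed 1.5-fold again in the held-out pair also lay above that of all shared regions. It was 39.0% of those chosen in siORCA 1 and control 1 against 37.0% of all shared regions, and 39.7% against 35.8%, 31.9% against 28.7% and 31.0% against 29.4% for the other choices in the order above. Regions chosen as wider in the control sample also leaned to siORCA in the held-out pair, with median log2 differences of 0.22, 0.13, 0.07 and 0.08. For siORCA 2 and control 2 this choice lay further above all shared regions (by 0.0069) than the choice of siORCA as wider (by 0.0047), and 31.1% of its regions passed 1.5-fold towards siORCA in the held-out pair. Regions chosen as wider in siORCA passed 1.5-fold towards control more often than all shared regions in the first and last choice, at 21.1% against 19.96% and 26.4% against 26.1%. In the other 2 choices they did so less often, at 22.9% against 24.0% and 19.3% against 20.2%. The direction of the choice thus carried over in some pairs and not in others.

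**Figure D3:**
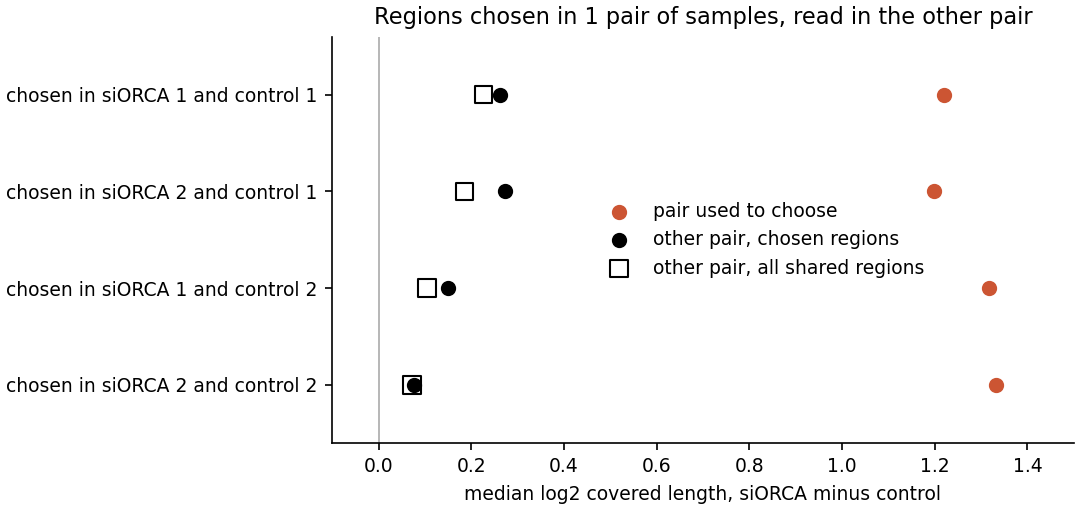
Median log2 of covered length, siORCA minus control (horizontal axis), for regions chosen as at least 1.5 times wider in 1 siORCA and 1 control sample. Orange points give the pair used for the choice (1.20 to 1.33), black points the same regions in the other pair (0.08 to 0.27) and open squares all shared regions in that other pair (0.07 to 0.23). Each black point lies close to its square.

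In most members the longer siORCA stretch was a single peak, as each siORCA list also had in most shared regions. Both siORCA lists had 1 peak in 3065 of the 3648 regions (84.0%), and all 4 lists had 1 peak in 2773 (76.0%). In 292 (8.0%) a control list held 2 or more peaks where each siORCA list held 1. These joint counts were not made over all shared regions, so they do not set the members apart. Control lists held 2 or more peaks more often in the members than in all shared regions, at 7.07% against 4.17% in control 1 and 8.42% against 6.58% in control 2. For siORCA 1 the shares were 12.03% and 10.9%, and for siORCA 2 4.39% and 4.83%. The part of split peaks in the widths was not tested.

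The added length lay on one side of the control peaks more often than on both, as in every other direction of the rule. In 1170 members (32.1%) both siORCA samples reached past both control peaks on both sides, with a median of 207 bp gained over the 2 sides by the nearer siORCA edges. In 1048 they did so only on the side of lower coordinates and in 983 only on the side of higher coordinates. These one-sided regions made up 55.7% of members, with a median gain of 205 bp. The wider pair reached past both sides in 16.7% to 26.4% of regions in the mixed pairings, and the controls did so in 16.4% of the regions narrower after siORCA. One-sided regions made up 59.0% to 63.8% in the mixed pairings and 63.3% of the narrower regions, so members were the least one-sided. The difference from these sets was not tested. In the remaining 447 members there was no side on which both siORCA samples reached past both controls, though a single siORCA sample may have done so. In 212 of these the 2 control peaks did not overlap each other.

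Control peaks had no fixed place within the longer siORCA peaks. With the siORCA 1 span cut into 3 equal parts along the chromosome, the midpoint of the control 1 peak fell in the lower, middle and upper part in 30.6%, 31.2% and 32.5% of members. For control 2 in siORCA 2 the shares were 31.5%, 29.3% and 32.9%. The 2 controls did not overlap each other in 532 members (14.6%), against 3.48% of all shared regions. The mirror value, for the 2 siORCA peaks in regions narrower after siORCA, was 10.7%, so short peaks of a selected pair missed each other there too. For the shorter pair in the mixed pairings it was 7.69% to 16.4%, a range that holds the value of the members.

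**Figure D4:**
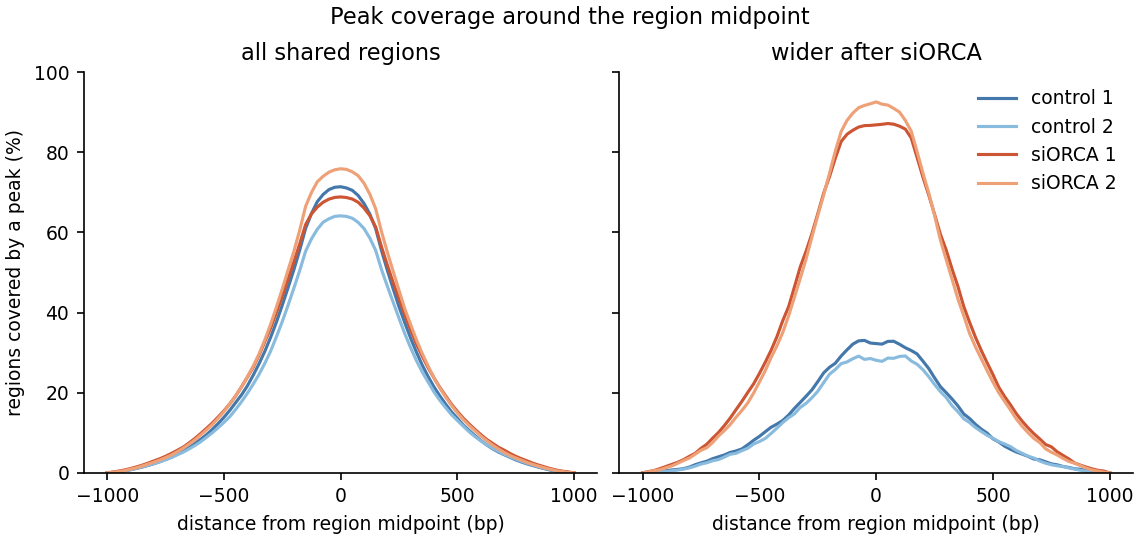
Share of regions covered by a peak (vertical axis, %) against the distance from the midpoint of the merged region in bp (horizontal axis), by sample, for all shared regions (left) and those wider after siORCA (right). At the midpoint of the latter, peaks covered 32.3% and 28.1% of regions in control 1 and control 2 and 86.9% and 92.6% in siORCA 1 and siORCA 2. The choice of these regions favours this, as the longer peaks help to set the midpoint. In the same order the shares were 71.4%, 64.2%, 68.9% and 75.9% over all shared regions. In regions narrower after siORCA (not drawn) they were 89.2%, 88.2%, 26.6% and 28.9%. The curves fall off alike on both sides.

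Peak height and significance in the members were close to those of shared regions at large. The median of the authors' fold enrichment, taken as the highest peak of a region, was 4.42 (control 1), 4.52 (control 2), 6.75 (siORCA 1) and 5.05 (siORCA 2). Over all shared regions it was 4.51, 4.72, 6.66 and 5.24. Both siORCA folds exceeded both control folds in 41.2% of members and in 40.7% of all shared regions. Among the regions narrower after siORCA this share was 36.2%. The median −log10 q was 3.43, 3.62, 8.59 and 5.03 in the members and 3.61, 3.99, 8.28 and 5.35 in all shared regions, in the order control 1, control 2, siORCA 1, siORCA 2. The higher significance in siORCA thus held for shared regions in general, and its part in the widths was not tested.

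The share that passed the rule was lower in the strongest regions than in the weakest, in every pairing. Shared regions were ordered by mean log2 fold over the 4 lists and cut into 5 equal parts. In the weakest part 7.95% were wider after siORCA, in the next 8.47% and in the strongest 6.35%. In the same parts 5.24% and 2.12% were narrower, and 8.85% and 4.28% had control 1 and siORCA 2 wider. In proportion, the fall from weak to strong was smaller for the regions wider after siORCA than for the other 5 directions. In the strongest part they numbered 602 against 406 for the highest mixed pair. This difference between directions was not tested.

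The largest ratio belonged to a region on chromosome 7 from 1081319 to 1083304. Control 1 had 126 bp of peak there and control 2 105 bp, against 1364 bp for siORCA 1 and 1534 bp for siORCA 2, a ratio of 10.8. Its control peaks were weak, at 3.15-fold and 3.68-fold enrichment. The fold was higher in siORCA 1, at 5.09-fold, and close to that of control 2 in siORCA 2, at 3.76-fold. On chromosome 17 from 82393849 to 82395517, the lengths were 134 bp, 96 bp, 966 bp and 1089 bp. On chromosome 22 from 30210732 to 30212172, they were 149 bp, 119 bp, 1046 bp and 1196 bp. All of these pair short control peaks with siORCA lengths near or above 1 kb. In each, 1 siORCA list held 2 peaks, so that its length is a sum: siORCA 2 on chromosomes 7 and 17, and siORCA 1 on chromosome 22.

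A region on chromosome 1 from 53543671 to 53544636 had 113 bp, 121 bp, 927 bp and 848 bp. On chromosome 2 from 219119929 to 219120941, 136 bp and 111 bp in control 1 and control 2 stood against 950 bp and 940 bp in siORCA 1 and siORCA 2. On chromosome 22 from 38894678 to 38895872, the values were 143 bp, 97 bp, 973 bp and 993 bp. In these 3 regions each list held 1 peak, and the 2 samples of a group lay close together. Here too the control lengths lie near the shortest of all shared regions.

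The members with the longest siORCA peaks were nearer the threshold. On chromosome 22 from 37583070 to 37585056, siORCA 1 and siORCA 2 covered 1877 bp and 1987 bp, while control 1 covered 1153 bp in 2 peaks and control 2 95 bp. On chromosome 7 from 130161293 to 130163194, the siORCA lengths were 1865 bp and 1902 bp and the control lengths 1223 bp and 383 bp. On chromosome 19 from 52474390 to 52476383, siORCA covered 1947 bp and 1860 bp and the controls 1219 bp and 1119 bp. In a region on chromosome 17 from 50727371 to 50729236, they covered 1841 bp and 1805 bp against 799 bp and 426 bp, a ratio of 2.26. Except on chromosome 19, the controls differed from each other by more than 1.5-fold in these wide regions.

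Among the members with the highest enrichment in all 4 lists, a site on chromosome 3 from 56597309 to 56597840 combined a high, narrow control peak with a lower and wider siORCA peak. Control 1 and control 2 had 125 bp and 123 bp of peak there, and siORCA 1 and siORCA 2 530 bp and 476 bp. Its fold enrichment was 133-fold and 125-fold in the controls and 42.0-fold and 67.7-fold in siORCA, with no overlap between the groups. In covered length the rule fixes such a separation for every member. On chromosome 17 from 83308997 to 83310543, the lengths were 355 bp, 355 bp, 1432 bp and 873 bp, and the folds 67.2, 46.4, 53.5 and 69.5 overlapped between the groups. On chromosome 1 from 155794126 to 155794759, the lengths were 331 bp, 321 bp, 572 bp and 571 bp and the folds 33.9, 22.8, 46 and 22.2. On chromosome 2 from 102083108 to 102083671, the lengths were 179 bp, 309 bp, 564 bp and 518 bp and the folds 27.1, 28.5, 50.02 and 20.3. In the last 3 sites the siORCA covered lengths were longer, as selected, while siORCA 1 and siORCA 2 differed in height.

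The members were spread over the whole genome. They occurred in 1215 of the 2543 windows of 1 Mb that held a shared region, and on all 23 chromosomes their share of shared regions exceeded that of the regions narrower after siORCA. It was the highest of the 6 directions on 18 chromosomes. After division of each sample by its median, wider regions outnumbered narrower ones on 15 chromosomes, were fewer on 7 and equal on 1. The share was highest on chromosome 17, at 304 of 3271 (9.29%), and lowest on chromosome 18, at 26 of 608 (4.28%), followed by chromosome 13, at 24 of 503 (4.77%). After division it was 7.0%, 2.63% and 3.98% on these chromosomes, beside 4.13%, 4.61% and 4.17% narrower.

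On chromosome 17 the median covered length over shared regions was 404 bp and 376 bp in control 1 and control 2 and 458 bp and 503 bp in siORCA 1 and siORCA 2. On chromosome 18 it was 362 bp and 334 bp against 379 bp and 357 bp, and siORCA 2 lay between the controls. On chromosome 13 it was 417 bp and 373 bp against 441 bp and 430 bp. Both siORCA medians lay above both control medians on every chromosome but chromosome 18. This therefore does not set apart chromosomes 17 and 13, at the upper and near the lower end of the range of shares. These lengths are also the ones the rule used.

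The share of members rose with the local density of shared regions. Of 5 parts of about equal size ordered by that density, the sparsest had 6.31% wider after siORCA and 4.40% narrower, with a median of 9 shared regions per 1 Mb window. In the densest, with a median of 95, 8.32% were wider and 2.37% narrower. The mixed pairing with the highest count, control 1 and siORCA 2, stood at 6.02% and 6.27% in these parts. After division by the sample medians the sparsest part had fewer wider (4.58%) than narrower regions (6.19%), and the densest more (6.03% against 3.64%), so the direction in sparse windows turned with the scaling while the trend did not. The single pairs rose as well, but they share samples and use the lengths of the rule, so they lend no separate support. From the sparsest to the densest part the median log2 difference went from 0.04 to 0.09 for siORCA 1 and control 1. It went from 0.04 to 0.14 for siORCA 2 and control 1, from 0.10 to 0.25 for siORCA 1 and control 2 and from 0.10 to 0.32 for siORCA 2 and control 2. Median covered lengths themselves rose with density in all 4 samples, in control 1 from 323 to 459 bp and in siORCA 2 from 328 to 530 bp.

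**Figure D5:**
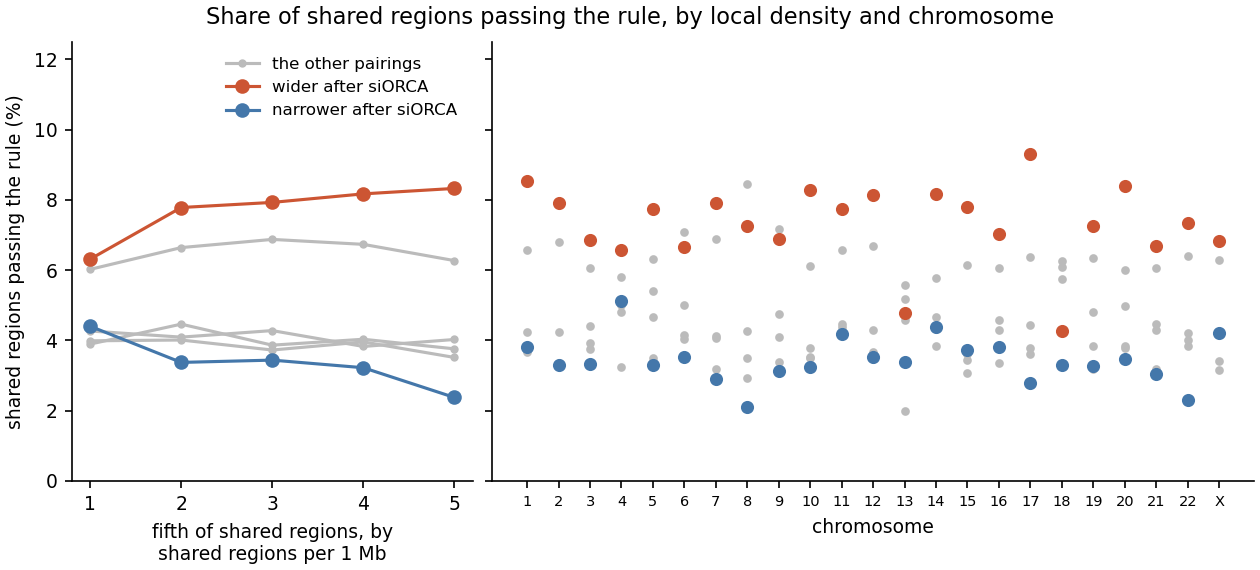
Share of shared regions (vertical axis, %) that were wider (orange) or narrower (blue) after siORCA, with the 4 directions of the mixed pairings in grey, over 5 parts of the shared regions ordered by the number of shared regions in their 1 Mb window (left) and by chromosome (right). Wider regions go from 6.31% in the sparsest to 8.32% in the densest part and narrower ones from 4.40% to 2.37%; chromosomes 17 (9.29%) and 18 (4.28%) mark the ends of the range for wider regions.

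A few windows held many members. Of 774 windows with at least 20 shared regions, 12 had more than 20% of them wider after siORCA, against 0 for narrower and 7 for control 1 and siORCA 2 wider. The window on chromosome 10 from 43 to 44 Mb had 17 of 45 (37.8%), one on chromosome 17 from 59 to 60 Mb 10 of 37 (27.0%), one on chromosome 1 from 128 to 129 Mb 11 of 42 (26.2%) and one on chromosome 1 from 160 to 161 Mb 11 of 43 (25.6%). By number, the densest windows led, with 22 of 180 on chromosome 7 from 1 to 2 Mb and 18 of 134 on chromosome 20 from 64 to 65 Mb. These windows were picked for their share or number of members.

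Over chromosome 10 from 43 to 46 Mb, a stretch already known from these lists for high siORCA coverage, 42 of 159 shared regions (26.4%) were wider after siORCA, 1 was narrower and at most 3 fell in any mixed direction. The median covered length there was 344 bp and 333 bp in control 1 and control 2 and 550 bp and 574 bp in siORCA 1 and siORCA 2. After division by the sample medians 33 remained wider and 4 were narrower. The groups did not overlap in these medians, which the choice of a stretch for its siORCA coverage favours, so they lend no support of their own.

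Along the chromosomes members were little clustered. The shared region next to a member was itself a member in 8.42% of cases, against 7.69% of all shared regions, and in 8.4% where it lay within 10 kb. For control 1 and siORCA 2 wider the same step was from 6.5% to 7.36%. Position along the arm made little difference, with 7.48% of shared regions wider within 2 Mb of the outermost peak of a chromosome and 8.14% beyond 20 Mb from it.

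The flanks of the members were also covered further in both siORCA samples. In the 5 kb on either side of a member, peaks covered a mean of 736 bp (control 1), 711 bp (control 2), 1022 bp (siORCA 1) and 893 bp (siORCA 2). Around all shared regions the means were 708 bp, 701 bp, 963 bp and 838 bp, and around regions narrower after siORCA 638 bp, 661 bp, 831 bp and 719 bp. Coverage of the flanks was thus higher in both siORCA samples around regions of either direction, and in each of the 4 samples the mean around the members exceeded that of the other 2 sets. A region found in both siORCA lists and neither control list lay within 5 kb of 26.4% of members, of 23.6% of all shared regions and of 21.7% of the narrower ones, with 20.97% to 24.4% in the mixed pairings. The share near members was the highest of the 6 directions, and the difference was not tested. For regions found in both control lists and neither siORCA list these shares were 5.98%, 5.85% and 6.64%. The 2 kinds of region differ in number, with 8954 of this kind and 29106 of the kind found in both siORCA lists only, so their shares are not comparable.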

How the data were processed

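NS-seq peak lists of 4 samples (2 control, 2 siORCA) were used. The submitters' processing notes name BWA, SAMtools, MACS2 and the T2T-CHM13 build. Versions, settings and the caller's background were not given in the sources used here. Per the labels the lists are one per sample, and the authors deposited broad peaks called per sample. Each deposited peak has a score, a fold enrichment (a linear ratio), and −log10 p and q values, the lowest −log10 q being 1.30. Positions are printed counting from 1.

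Peaks of chromosomes 1 to 22 and X were merged where they touched or overlapped, and peak bases were summed per sample and region, as the opening describes. The merging and the rule were tested on simulated data. No test was run on covered length, since it chose the regions. Held-out pairs, strata and neighbours are descriptions. The members, lists and comparisons were chosen with earlier results of these data known. Regions were named by rule: the 6 largest ratios, the 4 longest by the smaller siORCA length, the 4 highest by the lowest of the 4 folds, and 2 on each side of the threshold. Windows and stretches were named after their values were seen. The planned gene lists, sequences and annotation were not used, since the tables at hand are of another build. Software was pandas 2.3.3, numpy 2.4.6 and scipy 1.17.1 under Python 3.11.15. The number and width of peaks can move with depth, which is unknown.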

Additional observations from a re-analysis of the deposited data

How the results depend on the processing

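With only those peaks kept whose −log10 q was 3 or more, 1455 regions were wider and 487 narrower after siORCA, at 7.31% and 2.45% of 19909 shared regions, and the highest mixed pair had 1106. The lower ratio planned as an alternative gave 5813 and 2658, and a ratio of 2 gave 1691 and 718. Leaving out 1 sample, so that fewer samples must meet the rule, gave 7747 to 11456 wider and 3790 to 5944 narrower regions. Lists at the same covered length gave 2849 (7.54%) and 1161, and division by the sample medians 2622 and 2263. Wider regions outnumbered narrower ones, and the highest mixed pair, in all of these settings but the leave-one-out ones, for which mixed pairs were not counted, and also with no bounds on width (3998 and 1682), at least 100 bp covered per sample (3478 and 1472), gaps of 100 bp merged (3674 and 1608), the span in place of summed bases (3704 and 1502) and, chosen after seeing the data, without the chromosome 10 stretch (3606 and 1595). With the replicate number as a block (siORCA 1 over control 1 and siORCA 2 over control 2), 5434 regions were wider and 2612 narrower, but the numbers do not pair the samples: the correlation of same-numbered deviations over shared regions was −0.04.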
